A study of Mus musculus with 10 samples.

Results

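Retinoic acid is the active form of vitamin A, and 7 genes that make it, carry it or read it were examined in the mouse neocortex at E11.5. Crabp1 and Crabp2 encode the cellular retinoic acid binding proteins, Aldh1a2 encodes a retinaldehyde dehydrogenase that makes retinoic acid, and Rara, Rarb, Rarg and Rxra encode nuclear receptors. The members were all probes whose only gene symbol in the platform annotation was 1 of these 7, which gave 16 of the 21766 probes on the array. The annotation names 15063 genes in all. Rara and Rarg had 5 probes each, Rarb had 2, and the other genes had 1 each. Probes of the same gene share their target and are not replicates of each other, and they are told apart below by the sequence record that the annotation gives for each.

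The tissue was the most rostral or the most caudal of 3 parts of the neocortex, from the inbred strain C57 or the outbred stock MF1, and the labels name no engineered allele and no treatment. Left and right cortices of 3 embryos of 1 litter made a pool, so no value belongs to a single animal. Amplified cDNA of both ends of the cortex carried different dyes, Cy3 or Cy5, and competed on the same array, and each pool had 1 array in each dye order. There were 2 C57 pools on 4 arrays and 3 MF1 pools on 6 arrays. Both strains were used to tell regional differences from differences that depend on the strain.

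Cells oxidise retinol to retinaldehyde and then to retinoic acid, and enzymes of the CYP26 family break it down again. Retinoic acid acts on pairs of a retinoic acid receptor and a retinoid X receptor, which sit on paired hexamers in the DNA of their target genes and turn from repressors to activators when it binds. Crabp2 is known to hand the ligand to the receptors, and Crabp1 to pass it to the enzymes that degrade it. In the embryonic forebrain the meninges are a known source through Aldh1a2, and the lateral ganglionic eminence is another through Aldh1a3.

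The paired hexamers are shown first, since Rarb and Cyp26a1 are the textbook reporters of retinoic acid among the genes described here. RefSeq windows of 300 bases, from 250 before to 50 after a gene start in GRCm38.p6, were searched on both strands for a pair of hexamers in the same orientation with 5 bases between them. Each hexamer could be the consensus AGGTCA, the variant spelled AGTTCA, the further variant spelled GGGTCA or the last variant, which is spelled GGTTCA. Of 32851 such windows, 32 held a pair (0.0974%), and they included 1 of the 11 windows of the 7 genes, that of Rarb. The Rarb pair is a textbook case, and its hexamers GGTTCA and AGTTCA were among the spellings allowed. Its match is therefore not a result about the 7 genes. Windows were matched for 6 of the 7 genes, all but Crabp2. Cyp26a1, which encodes a retinoic acid hydroxylase, was the other gene of the pathway lists whose window held a pair. With 1 or 2 bases between the hexamers the shares were 0.222% and 0.268%, and none of the 11 windows held a pair. With the windows of the pathway lists added, 1 held a pair with 1 base between and 0 with 2 bases. Capitals mark the hexamers, and both stretches lie before the start of the gene, read along the strand of the gene. In Cyp26a1 the hexamers lie on the opposite strand and so appear as TGAACT.
Rarb, chr14:16575477-16575569, minus strand: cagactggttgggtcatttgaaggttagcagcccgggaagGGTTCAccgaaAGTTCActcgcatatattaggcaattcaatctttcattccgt
Cyp26a1, chr19:37697736-37697807, plus strand: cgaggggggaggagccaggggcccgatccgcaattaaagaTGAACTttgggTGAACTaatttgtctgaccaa

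The pair lies 36 bases before the start of Rarb and 15 bases before that of Cyp26a1. A match describes the letters only, and no binding was measured here.

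Values are given on the log2 scale as caudal over rostral, and positive ones mark an excess in the caudal part. The labels do not say which dye is the numerator. Reading the deposited ratio as Cy5 over Cy3 is likely, since the Nr2f1 probe X74134, whose gene has a known caudal gradient, was then positive on all 10 arrays. In that reading the other tested Nr2f1 probe was positive on 9 of 10 arrays, with -0.70 as its lowest value. Under the other reading every sign turns. Ratios give no expression level, so neither the presence of cortical tissue nor that of other cell types can be read from them. In pooled tissue, fewer cells of a type and less RNA per cell cannot be told apart. The arrays gave a ratio for 13723 to 20870 probes, and their number limits the precision. Once turned, both arrays of a pool correlated at -0.25 to 0.03 across probes, arrays of different pools with the same dye order at 0.02 to 0.44, and those with the opposite order at -0.40 to 0.04. Repeated Gapdh control spots had an SD of 0.25 to 0.43 within an array. Over probes, the SD was 0.70 to 0.91 on C57 arrays and 1.13 to 1.77 on MF1 arrays. Strain and this spread therefore cannot be told apart.

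Of the 160 possible array values of the 16 probes, 33 were missing, 3 of 64 in C57 (4.69%) and 30 of 96 in MF1 (31.2%). Over all probes, 5.6% were missing in C57 and 27.4% in MF1. A probe was tested when at least 2 pools of each strain had a ratio in both dye orders. This left 6 probes, for Crabp1, Crabp2, Aldh1a2, Rara (X56570) and Rarg (NM_011244 and M32070). The 10 others, including both Rarb probes and that of Rxra, are given as measured values only.

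None of the 6 tested probes differed between the caudal and the rostral part in limma with Benjamini-Hochberg adjustment, in the mean of both strains (adjusted p from 0.983 to 0.998), in C57, in MF1 or between the strains. The background was the same, since 0% of the 11855 tested probes passed in any of these 4 comparisons. At an unadjusted p under 0.05, 1.98% of all probes were called with a positive and 1.11% with a negative mean ratio, and none of the 6 was among them. The mean ratio was positive for 4 of the 6 and negative for 2, with a median of 0.11. Over all tested probes the median was 0.09 and 69.4% were positive, so the members' signs sit near the background.

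Crabp2, the binding protein that delivers retinoic acid to the nucleus, had the largest mean ratio of the 6 tested probes. The C57 pools gave 0.96 and 0.44, and the MF1 pools gave 0.25, -0.54 and 0.30. It was the only member probe positive on 9 of 10 arrays, against 2.75% of the 8924 probes measured on every array. The exception was MF1 pool 2 with caudal RNA in Cy3, at -1.75, while the other array of that pool gave 0.68. The mean of both strains was 0.35 ± 0.20 (SE, n = 5 pools), a 1.28-fold caudal excess with a 95% interval of 0.911 to 1.78-fold, and the adjusted p was 0.983 in limma. Of all tested probes, 8.86% had a smaller p and 10.9% a larger ratio. Without MF1 pool 2 the ratio was 0.49, and without C57 pool 1 it was 0.22.

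Both C57 pools lay above all 3 MF1 pools for Crabp2. Its C57 mean was 0.70 and its MF1 mean 0.002, a difference between MF1 and C57 of -0.70 ± 0.39 (SE, n = 5 pools) with a 95% interval of -1.67 to 0.27 and an adjusted p of 0.999 in limma. The MF1 pools lay all above or all below the C57 pools for 17.2% of all tested probes, and for 1 of the 6 members. The share with C57 above was not computed. Leaving out C57 pool 2 gave a difference of -0.96, and leaving out MF1 pool 2 gave -0.43. After each array was centred on its median, the pool values became 1.14 and 0.07 in C57 and 0.44, -0.63 and 0.17 in MF1, and the strains overlapped.

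Crabp1, the binding protein linked to breakdown of retinoic acid, had pool values of -0.29 and 0.68 in C57 and -0.55, 0.03 and -0.72 in MF1. Without centring, it went both ways within each strain. After each array was centred on its median, the pools stood at -0.11 and 0.31 in C57 and at -0.36, -0.06 and -0.845 in MF1. All MF1 pools were then negative. Without centring, the mean of both strains was -0.11 ± 0.21 (SE, n = 5 pools), and the difference between MF1 and C57 was -0.61 ± 0.43, with adjusted p values of 0.983 and 0.999 in limma. Without C57 pool 2 that difference was -0.12, and without C57 pool 1 it was -1.10. Its values differed by dye order. Arrays with caudal RNA in Cy5 averaged 0.24 and those with caudal RNA in Cy3 averaged -0.59, and both arrays of a pool differed by a median of 1.065, against 0.50 over all tested probes. Crabp2 and Aldh1a2 had a median difference of 0.31 and 0.29.

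The binding proteins were also compared within each pool. Crabp2 minus Crabp1 was 1.25 and -0.24 in C57 and 0.80, -0.57 and 1.02 in MF1. The mean was 0.45 ± 0.81 (SD, n = 5 pools), positive in 3 of 5 pools, and an exact two-sided sign-change test gave p = 0.312. The smallest p that 5 pools can give in this test is 0.0625. The ratios of the 2 binding proteins were thus not separated beyond the spread between pools.

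Aldh1a2, the enzyme that makes retinoic acid, had the smallest standard error of the 6. Its pools stood at 0.13 and 0.29 in C57 and at -0.08, 0.54 and 0.19 in MF1, and single arrays ran from -0.09 to 0.56. It was positive in 4 of 5 pools, and the share of all probes that reach 4 of 5 was not computed. No member was positive in 5 of 5, against 4.16% of the 8924 probes with all pools. The mean of both strains was 0.21 ± 0.16 (SE, n = 5 pools), 1.16-fold, with a 95% interval of 0.885 to 1.52-fold and an adjusted p of 0.983 in limma. Both strains gave nearly the same mean, 0.21 in C57 and 0.22 in MF1, and their difference was 0.01 with a 95% interval of -0.77 to 0.79. The arrays with caudal RNA in Cy5 averaged 0.26 and the others 0.18.

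Since Aldh1a2 is known from the meninges, markers of meninges and mesenchyme were set beside it. Of the 18 listed genes 12 were tested, with 8 probes above 0, 5 below and a median of 0.01. Over all tested probes 69.4% lay above 0, with a median of 0.09. By pool, the list's median was at -0.08 and 0.52 for C57, and at -0.36, 0.42 and 0.17 for MF1. Without centring, both Aldh1a2 and the list were lowest in MF1 pool 1. Their highest pools differed, MF1 pool 2 for Aldh1a2 and C57 pool 2 for the list. The same median over all tested probes, without centring, was at -0.10 and 0.36 for C57, and at -0.18, 0.13 and 0.15 for MF1. After centring, Aldh1a2 stood at 0.31 and -0.08 in C57 and at 0.11, 0.46 and 0.07 in MF1. Its lowest pool was then C57 pool 2, and centred pool medians of the list were not computed. The part of meningeal tissue in the Aldh1a2 ratio was not tested. The list's smallest p values were those of Fbn2, a microfibril protein, at 0.52 ± 0.22, and Lum, a matrix proteoglycan, at 0.77 ± 0.36 (SE, n = 5 pools each), both with an adjusted p of 0.983 in limma.

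**Figure D1:**
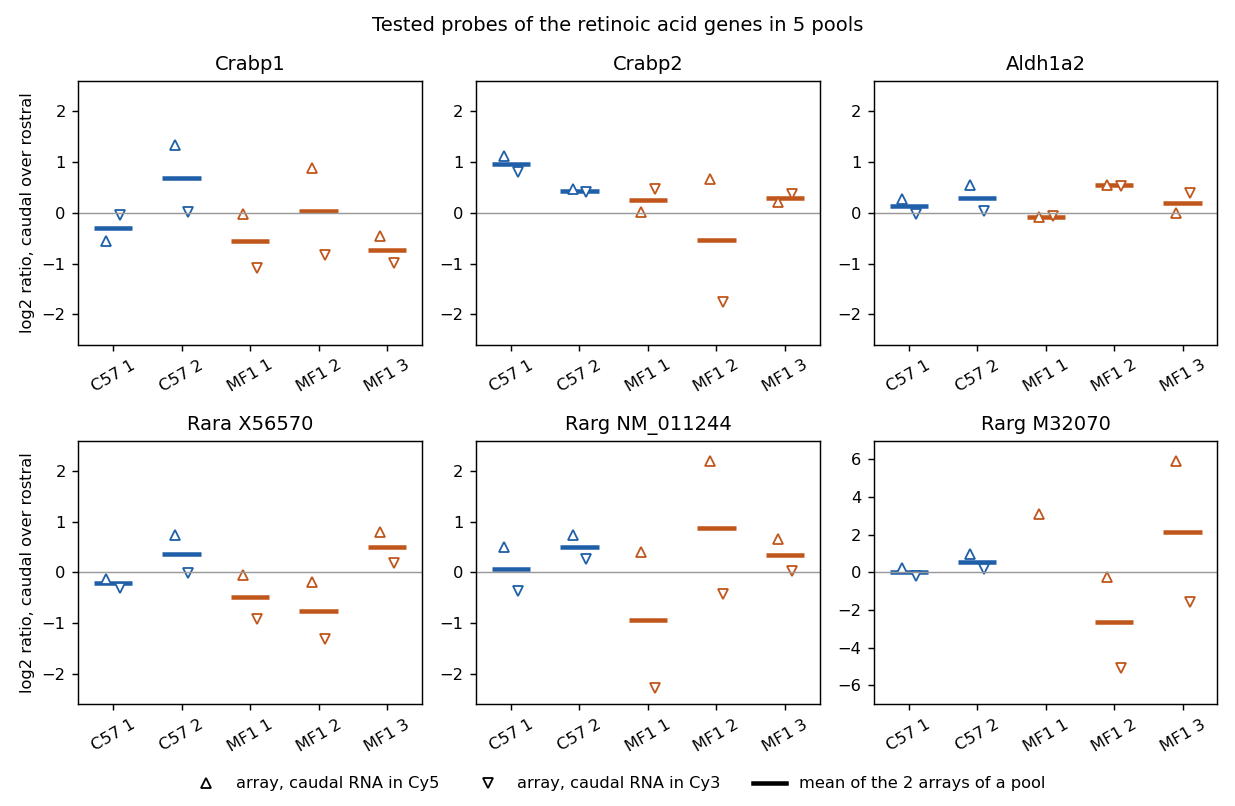
Log2 ratio of caudal over rostral RNA (y axis) for the 6 tested probes in each of the 5 pools (x axis), with triangles for single arrays by the dye of the caudal RNA and bars for the mean of both arrays of a pool. Aldh1a2 stays between -0.09 and 0.56, while Rarg M32070, on a wider axis, runs from -5.07 to 5.91.

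Among the receptors, the gene of the ubiquitous form, Rara, was tested by the probe X56570. Its pools stood at -0.22 and 0.37 in C57 and at -0.48, -0.75 and 0.50 in MF1. Without centring, each strain thus held both signs. After each array was centred on its median, the pools stood at -0.0355 and -0.002 in C57 and at -0.29, -0.84 and 0.375 in MF1. Only MF1 then held both signs. The mean without centring was -0.09 ± 0.23 (SE, n = 5 pools) with a 95% interval of 0.630 to 1.41-fold and an adjusted p of 0.983 in limma. In each of the 5 pools the array with caudal RNA in Cy5 lay above the other, and the averages of the dye orders were 0.24 and -0.47.

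The 4 other Rara probes were measured on 4 to 7 arrays. X56565 had 5 positive values and 1 negative one between -0.69 and 0.66. X56567 ran from -1.69 to 1.14, with 2 positive and 3 negative values. X56568 had 5 positive values and 2 negative ones, from -1.98 to 1.11. X56571 was measured in C57 only, at -1.08 in pool 1 and 0.54 in pool 2. No Rara probe kept 1 sign across the arrays on which it was measured.

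Rarb is the receptor gene that retinoic acid itself induces through the hexamer pair shown above. The probe X56574 was measured on 9 arrays, of which 8 were positive, and the share of all probes that reach this was not computed. In MF1 the pools of X56574 stood at -0.24, 0.65 and 0.41. In C57, pool 2 gave 0.32 and pool 1 had a single array, at 0.12. After each array was centred on its median, C57 pool 2 gave -0.0535 and the MF1 pools gave -0.0485, 0.56 and 0.29. The probe X56573 behaved differently, with 2 positive and 6 negative arrays from -1.46 to 0.85. Its C57 pools stood at -0.32 and 0.39 and its MF1 pool 1 at -0.52. In MF1 pools 2 and 3 it had 1 array each, at -1.46 and 0.83. The 2 probes thus gave no common direction, and neither was tested.

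Rarg, the receptor gene known from skin and skeletal precursors, was tested by 2 of its 5 probes. NM_011244 had pool values of 0.07 and 0.50 in C57 and of -0.94, 0.88 and 0.35 in MF1. It was positive in 4 of 5 pools, again without a computed share over all probes. The mean was 0.19 ± 0.29 (SE, n = 5 pools), with a 95% interval of 0.691 to 1.88-fold and an adjusted p of 0.983 in limma. Its arrays averaged 0.90 with caudal RNA in Cy5 and -0.56 with caudal RNA in Cy3. M32070 had 0.01 and 0.57 in C57 and -2.65 and 2.16 in MF1 pools 2 and 3. MF1 pool 1 gave a single array at 3.10 and was not part of the fit. Both arrays of MF1 pool 3 lay 7.49 apart, at 5.91 and -1.58. The mean of 0.02 ± 0.81 (SE, n = 4 pools) therefore has a 95% interval of 0.234 to 4.40-fold, the widest of the 6, and an adjusted p of 0.998 in limma.

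The remaining Rarg probes, M32071, M32072 and M32073, had ratios on 7 or 8 arrays each, from -5.01 to 2.05, and none kept 1 sign. Rxra, which encodes the partner receptor of all 3 retinoic acid receptors, was measured on 7 arrays. Its C57 pools stood at -0.40 and 0.39 and MF1 pool 1 at -1.46, where the arrays gave 0.07 and -3.0. MF1 pool 3 had 1 array, at 0.31, and MF1 pool 2 had none. Of its 7 values 4 were positive.

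**Figure D2:**
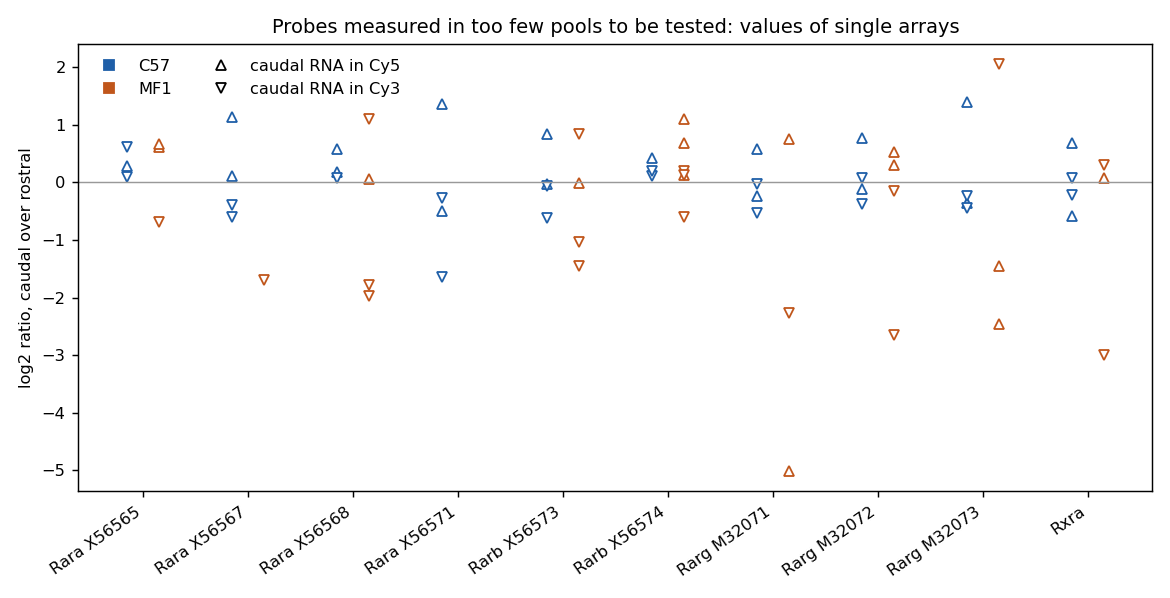
Log2 ratio of caudal over rostral RNA (y axis) on single arrays for the 10 probes that were not tested (x axis), coloured by strain, with the triangle giving the dye of the caudal RNA. Rarb X56574 was positive on 8 of 9 arrays, a count without a computed share over all probes. The MF1 values of the Rarg probes spread from -5.01 to 2.05.

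In C57, 12 of the 13 member probes measured on all 4 arrays were higher in pool 2 than in pool 1, the exception being Crabp2. The same held for 89.3% of all such probes. With every array centred on its median it held for 10 of the 13, against 49.2% of all probes. The 13 include all Rarg probes and several of Rara, which are not replicates. Some centred differences were very small. Rarg M32070 had 0.1925 in pool 1 and 0.198 in pool 2, and Rara X56570 had -0.0355 and -0.002. Most members also differed by dye order. All 6 tested probes had a higher average on arrays with caudal RNA in Cy5, as had 14 of all 16, and 80.2% of the tested probes did so.

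**Figure D3:**
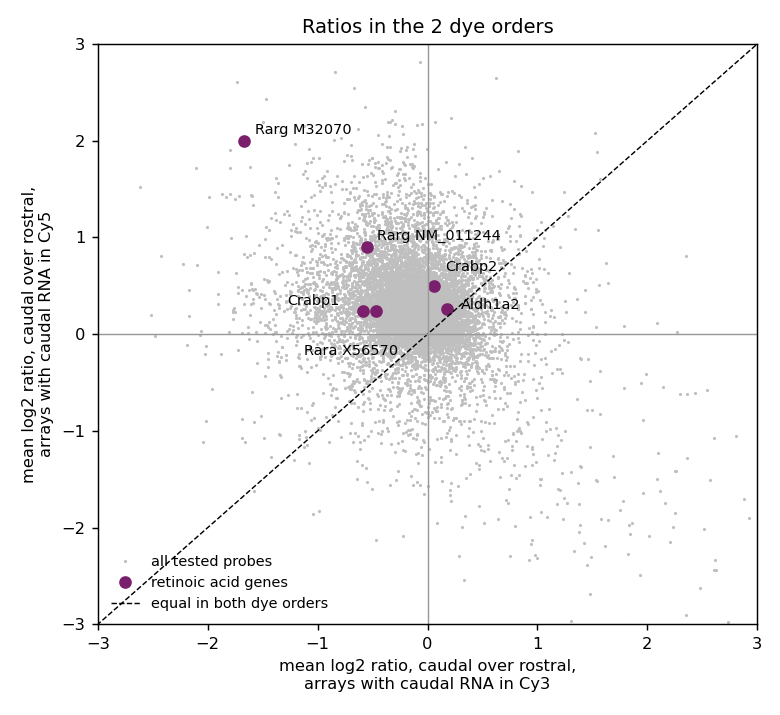
Mean log2 ratio of caudal over rostral RNA on the arrays with caudal RNA in Cy3 (x axis) and on those with caudal RNA in Cy5 (y axis), up to 5 of each, for all tested probes (grey; 7 lie outside the axes) and the 6 tested members. All 6 lie above the dashed line of equal values, and Aldh1a2, at 0.18 and 0.26, lies closest to it.

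The other genes of the pathway were taken from 4 lists, and none of their tested probes passed in limma, where 0% of all probes did. Beside the sign counts of these lists, 69.4% of all tested probes had a positive mean ratio, with a median of 0.09. For synthesis and breakdown, 6 of 15 listed genes were tested, 5 positive and 1 negative, with a median of 0.12. Aldh1a3, the retinaldehyde dehydrogenase of the lateral forebrain, had 0.06 and 0.36 in C57 and 0.11, 0.35 and 0.09 in MF1. It was positive in all 5 pools, as were 4.16% of the 8924 probes with all pools. Its mean was 0.20 ± 0.14 (SE, n = 5 pools), with an adjusted p of 0.983 in limma. The alcohol dehydrogenases Adh5 and Adh4 had 0.20 ± 0.15 and -0.50 ± 0.36, and Adh4 rested on -2.17 in MF1 pool 2. Dhrs3, a reductase that turns retinaldehyde back to retinol, had 0.11 ± 0.21. Cyp26a1, whose hexamer pair is shown above, was measured on 4 arrays from -2.18 to 1.40, 2 of them positive. Lrat, which esterifies retinol for storage, was positive on all 6 arrays that measured it, from 0.09 to 1.29, and was not tested. No share over all probes was computed for that count.

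Of 8 genes for retinoid carriers and uptake 4 were tested, 3 positive and 1 negative. Ttr, the plasma partner of the retinol carrier Rbp4 and a product of the choroid plexus, had 2.21 and 2.13 in C57 and 0.65, 1.56 and 1.39 in MF1. Its mean was 1.68 ± 0.19 (SE, n = 5 pools), and its adjusted p was 0.567 in limma. The intracellular lipid carriers Fabp7 and Fabp5 had opposite signs, at -0.28 ± 0.14 and 0.28 ± 0.18. Fabp5 can carry retinoic acid, while Fabp7 marks radial progenitors and binds fatty acids. Rbp4 gave a ratio on 1 array only, at -0.36.

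Receptor partners and co-regulators were split evenly, with 6 positive and 6 negative of 12 tested probes and a median of 0.01. Of these, the coactivators Ncoa3 and Ncoa6 had 0.27 ± 0.20 and 0.20 ± 0.14. Crebbp, an acetyltransferase, had 0.24 in C57 and -0.95 in MF1, from 2 pools each. The remaining retinoid X receptors, Rxrb and Rxrg, had 6 and 4 measured arrays and were not tested.

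Known retinoic acid targets had 7 positive and 3 negative of 10 tested probes and a median of 0.16. Over all tested probes 69.4% were positive and the median was 0.09, so the signs of this list sit near the background. At an unadjusted p under 0.05, 3 of the 10 were called, all with a positive ratio, where 1.98% of all probes were. They were Ret and both probes of Nr2f1, which are not replicates of each other. Nr2f1 also set the direction in which all ratios are read, so its positive sign was fixed by that choice. Nr2f1, an orphan nuclear receptor, had 1.85 ± 0.22 (SE, n = 5 pools) at X74134 and 0.57 ± 0.20 at its other tested probe. Ret, a receptor tyrosine kinase, had 0.70 ± 0.28 and was negative in MF1 pool 3, at -0.21. Tshz1, a zinc finger factor, had 0.49 ± 0.22 and was positive in all 5 pools, as were 4.16% of the 8924 probes with all pools. Nr2f1 has an established caudal gradient in cortex, and it was used above to read the direction.

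**Figure D4:**
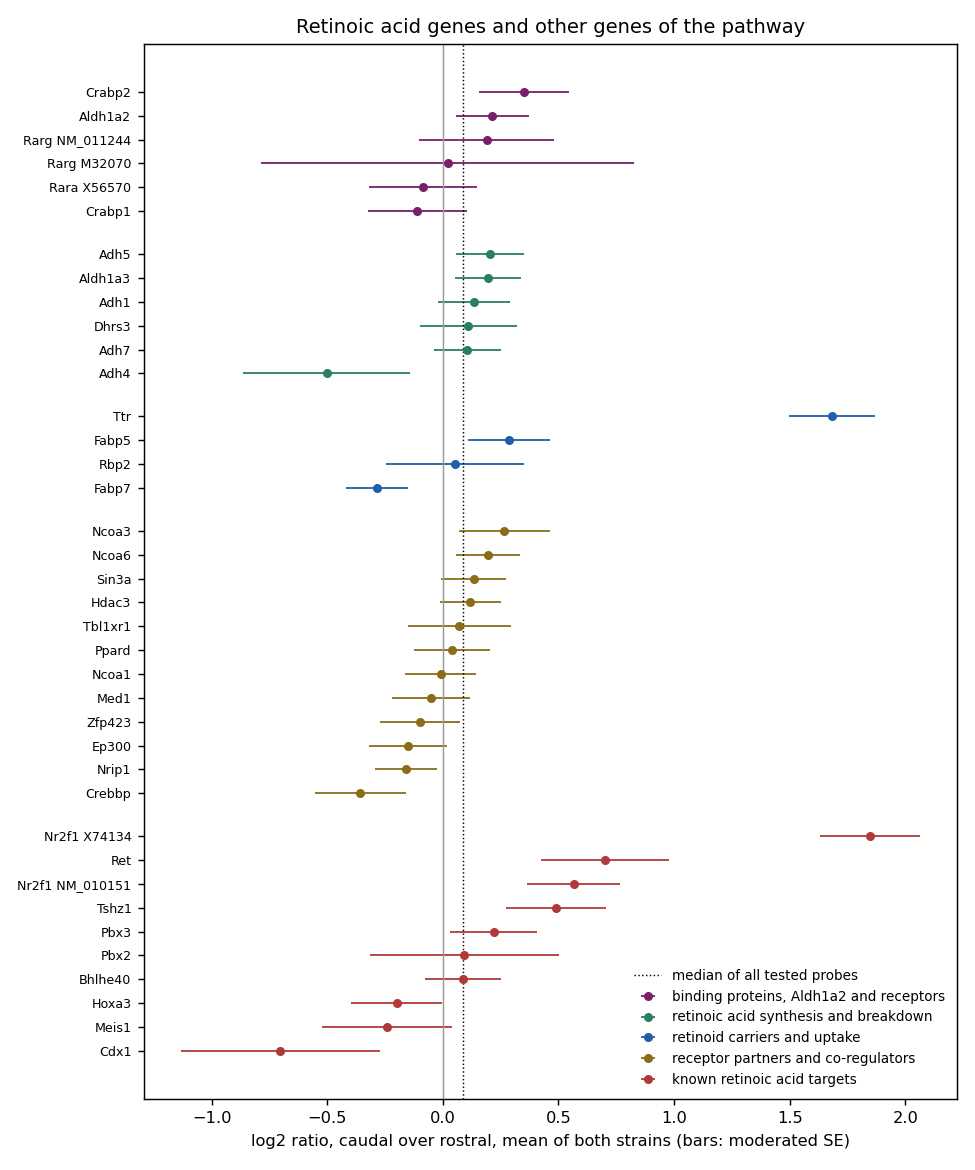
Mean log2 ratio of caudal over rostral RNA over both strains (x axis, bars show the moderated SE) for the tested members and the tested genes of 4 pathway lists (y axis). Ttr at 1.68 and Nr2f1 X74134 at 1.85 stand apart, and the 6 members lie between -0.11 and 0.35, around the dotted median of all probes, 0.09.

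Markers of other tissues that the pieces could hold were set beside the members as medians of tested probes. Over all tested probes the median was 0.09 and 69.4% were positive. For cortical hem and choroid plexus the median was 0.24, with 9 of 12 probes above 0, led by Ttr and by Rspo3, a WNT enhancer, at 0.99 ± 0.16. Blood had 7 of 7 positive and a median of 0.41, with the embryonic globins Hbb-y at 0.52 ± 0.15 and Hbb-bh1 at 0.51 ± 0.16. The globins stood at 0.90 and 0.85 in C57 and at 0.14 and 0.18 in MF1. Surface ectoderm and olfactory placode, where Crabp2 and Rarg are also known, had 6 of 7 negative and a median of -0.23. Its leading genes were Krt18, a keratin, at -1.45 ± 0.19 (n = 4 pools) and Trp63, an epidermal factor, at -0.80 ± 0.15. Krt18 was at -0.28 in C57 and -2.61 in MF1, and Trp63 at -0.35 and -1.25. For ventral telencephalon the median was -0.23, with 6 probes above and 7 below 0, and with the homeobox genes Dlx2 and Dlx1 at -0.76 ± 0.15 and -0.99 ± 0.24. Within a strain the list's median was 0.04 (0.0355) in C57 and -0.07 (-0.068) in MF1. Dlx2 was at 0.06 in C57 and -1.58 in MF1, and Dlx1 at -0.28 and -1.69. Dlx5 is listed for both ventral telencephalon and surface ectoderm, and its probe gave both medians of -0.23. For dorsal telencephalon the median was 0.11 and 12 of 13 probes lay above 0, with Fezf2 and Lhx2, transcription factors of cortical progenitors, at 0.39 ± 0.16 and 0.32 ± 0.15. Neuronal markers had 11 of 14 positive and a median of 0.15, with the differentiation factors Neurod1 and Nhlh2 at 0.74 ± 0.14 and 0.62 ± 0.17. All of these had adjusted p values above the threshold of 0.05 in limma. The part of these tissues in the members' ratios was not tested.

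The genes whose 5 pool values lay nearest to Crabp2, by the root mean square difference over pools, were Tsg101 at 0.23 (0.225 before rounding), Fth-ps3 at 0.23 (0.227) and Usp47 at 0.23 (0.234), where the median over 7526 named probes was 0.66. Those nearest to Aldh1a2 were 1700102P08Rik at 0.04 (0.0358), Kdm1a at 0.04 (0.0383) and Ppid at 0.04 (0.0403), against a median of 0.37. The median for each of the 2 genes shows that Aldh1a2 lay closer to most named probes to begin with, so the 2 sets of distances are not comparable.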

How the data were processed

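The values deposited by the authors are log2 ratios between the channels of an array, as read from their range. RNA was extracted with Trizol, amplified and labelled, per the labels. The scanner, the background correction and the normalization were not given in the sources used here. Values at a shared ceiling, 436 in number at 16.61 and none of them in a member probe, were treated as missing, and 232 Gapdh control spots were left out. Dye labels set the direction of each array, caudal over rostral, both arrays of a pool were averaged to 1 replicate, and arrays were not centred.

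All 11855 tested probes entered 1 fit with strain coefficients (limma 3.58.1, lmFit and eBayes, under R 4.3.3), which had 2.69 prior and 3 residual degrees of freedom. Tests were two-sided. Adjusted p values are Benjamini-Hochberg over all tested probes at a threshold of 0.05. The p values measure the spread between pools, which the labels give as separate. The procedure was tested on simulated data.

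The genes, lists and rules were chosen with earlier results of these data known. All probes of the 7 genes were described. From each pathway list up to 3 tested genes of smallest p were named, from each marker list 2, and the 3 nearest genes of 2 members. Adh4's pool, Dhrs3, Cyp26a1, Lrat, Rbp4, Rxrb and Rxrg were named after their values were seen. Plots came from matplotlib 3.10.9 (Python 3.11.15).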

Additional observations from a re-analysis of the deposited data

How the results depend on the processing

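No member passed an adjusted p of 0.05 in limma in any of the 16 alternatives run for the mean, for each strain or for the strain difference. The smallest adjusted p values came from fits without 1 pool, where a strain can be left with 1 value, so they are not given. For Rarg M32070, leaving out MF1 pool 3 left MF1 pool 2 as the only MF1 value, at -2.65. The arrays of that pool stood at -0.24 and -5.07. Crabp2 and Aldh1a2 kept a positive mean ratio throughout, from 0.15 to 0.55 and from 0.13 to 0.29, and the strain differences of Crabp1, Crabp2 and Rara X56570 stayed negative but moved with the pool left out, from -1.10 to -0.12, from -0.96 to -0.43 and from -0.69 to -0.03 (-0.028). The other ratios changed sign under some settings, and the cause was not tested. With caudal RNA in Cy5 only, the mean was 0.27 for Crabp1 and 0.25 for Rara X56570, and the strain difference was -0.25 for Aldh1a2, 2.33 for Rarg M32070 and 0.47 for Rarg NM_011244. With caudal RNA in Cy3 only, the mean was -1.67 for Rarg M32070 and -0.47 for Rarg NM_011244. Centring gave Rarg M32070 a mean of -0.0775, centring with scaling -0.0106, and no filter a strain difference of 0.58. Leaving out 1 pool gave means of -0.35 to 0.13 for Crabp1, -0.27 to 0.0608 for Rara X56570, -1.18 to 1.22 for Rarg M32070 and -0.0066 to 0.45 for Rarg NM_011244, and strain differences of -0.15 to 0.16 for Aldh1a2, -2.94 to 1.87 for Rarg M32070 and -0.58 to 0.33 for Rarg NM_011244. Over all probes, centring with scaling called 1 for the mean and 2 in C57, single arrays with a dye term called 1, C57 fitted alone called 51, and leaving out a pool called 0 to 37 in MF1 (37 without pool 1 and 24 without pool 3). With the pool number as a replicate block, the strain difference was -0.84 for Crabp2 and called 0 probes; same-numbered pools of the strains correlated at 0.15 and -0.02 in their deviations, so the numbers were not taken to pair them.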
